A study of Homo sapiens with 8 samples.

Results

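NEAT1, MALAT1, TUG1, MIR210HG, MIR22HG and MIR17HG, 6 long RNAs that do not code for protein, were followed in Panc1 cells deprived of oxygen with or without the splicing factor SF3B1. They were picked by symbol from the deposited gene table, and all 6 were among its 15176 genes and passed the filter on low values (a mean above 0 on the log2 scale used below). Panc1 is an established human cell line from a pancreatic ductal adenocarcinoma. The series holds 8 RNA-seq libraries in 3 groups: 3 from cells given an siRNA against SF3B1 (siSF3B1) and kept at 1% O2 for 8 h, 3 from cells given a control siRNA (siCtrl) at 1% O2, and 2 from siCtrl cells at 21% O2. Every group thus carried a transfected siRNA. The labels do not say which SF3B1 sequence was targeted, their wording leaves it unclear whether the siCtrl cells had the same 8 h, and siSF3B1 cells at 21% O2 were not analysed here. No label states that each library is a separate culture. The p-values therefore rest on library-to-library spread, and that spread could be technical. The series title names HIF1α, the oxygen-sensing transcription factor, and glycolysis as what SF3B1 was studied for.

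Long noncoding RNAs act as RNA. NEAT1 is the scaffold on which paraspeckles, a kind of nuclear body, assemble; it has a short polyadenylated form and a long form that shares its start, and the long form is the one paraspeckles need. MALAT1 is an abundant nuclear RNA enriched in nuclear speckles, where splicing factors gather. Both are made largely without splicing, and the MALAT1 3′ end and that of long NEAT1 are cut by RNase P. TUG1 is a spliced RNA found in nucleus and cytoplasm. The other 3 are spliced hosts of microRNAs, which are cut from the host transcript by Drosha and then by Dicer: MIR210HG for miR-210, a microRNA well known to be induced by HIF in low oxygen, MIR22HG for miR-22, and MIR17HG for the miR-17-92 cluster, which MYC and E2F factors drive.

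The mature microRNAs that these hosts can give rise to are shown because they separate the 3 hosts by what they could act on, although the libraries were made from long RNA and mature microRNAs were not measured. All sequences are RefSeq's for build GRCh38.p14, written 5′ to 3′, with the seed (bases 2 to 8, which pairs with targets) in capitals. From MIR210HG and MIR22HG come one hairpin each, both of whose arms are given:
hsa-miR-210-3p: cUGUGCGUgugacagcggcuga
hsa-miR-210-5p: aGCCCCUGcccaccgcacacug
hsa-miR-22-3p: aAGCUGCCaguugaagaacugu
hsa-miR-22-5p: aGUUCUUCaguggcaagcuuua
From MIR17HG come 6 hairpins, of which 1 arm each is given:
hsa-miR-17-5p: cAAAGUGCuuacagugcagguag
hsa-miR-20a-5p: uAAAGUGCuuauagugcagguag
hsa-miR-18a-5p: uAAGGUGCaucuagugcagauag
hsa-miR-19a-3p: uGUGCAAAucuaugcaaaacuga
hsa-miR-19b-3p: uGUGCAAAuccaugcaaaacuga
hsa-miR-92a-3p: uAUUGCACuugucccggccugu
Within the cluster, miR-17-5p and miR-20a-5p have the same seed, AAAGUGC, and miR-19a-3p and miR-19b-3p have the same seed, GUGCAAA. None of the MIR17HG seeds printed here is that of miR-210-3p or miR-22-3p.

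In the GENCODE 29 annotation of GRCh38, NEAT1 lies at chr11:65422774-65445540 on the plus strand, and its longest transcript is 1 exon of 22743 bases. MALAT1 follows it on the same strand at chr11:65497688-65506516, 52148 bases further on, and its longest transcript is 1 exon of 8708 bases. Both loci also carry spliced transcripts: 1 of 8 NEAT1 transcripts and 1 of 17 MALAT1 transcripts have a single exon. The other members have no single-exon transcript. TUG1 is at chr22:30969245-30979395 on the plus strand and its longest transcript has 3 exons and 7469 bases. The exons of its 20 transcripts together cover 10151 bases, the whole of this span. Its row may therefore also hold reads from stretches that are introns in some transcripts. MIR210HG is at chr11:565660-568457 on the minus strand, MIR22HG at chr17:1711493-1717174 on the minus strand and MIR17HG at chr13:91347820-91354579 on the plus strand, each with 2 exons in its longest transcript. The hairpin sits differently in each host. MIR210 lies in an intron of all 4 MIR210HG transcripts. MIR22 lies in an exon of all 19 MIR22HG transcripts. The 6 hairpins of MIR17HG lie in an exon of 2 of its 3 transcripts and in an intron of the other.

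The libraries held 20496492 to 25257173 reads assigned to genes. SF3B1 itself averaged 5.34 ± 0.140 log2 CPM in siSF3B1 cells and 8.77 ± 0.0842 in siCtrl cells at 1% O2 (SD, n = 3 each), with 8.87 ± 0.0126 in siCtrl cells at 21% O2 (n = 2). CPM is a count scaled to the size of its library. Across all 13112 genes tested, 66.0% differed between siSF3B1 and siCtrl cells at 1% O2, 5.65% between siCtrl cells at 1% and at 21% O2, and 62.4% between siSF3B1 cells at 1% O2 and siCtrl cells at 21% O2, at an adjusted p under 0.05 (limma with Benjamini-Hochberg adjustment). Of 12 ductal epithelial markers, 10 had a row and 8 passed the filter. Their summed level was 8138 to 10930 CPM in siSF3B1 libraries, 4910 to 6271 CPM in siCtrl libraries at 1% O2 and 5269 to 6249 CPM in siCtrl libraries at 21% O2, so it moved with the SF3B1 siRNA, and its part in the results that follow was not tested. This sum is mostly keratins: KRT8, KRT19 and KRT18, at 12.33, 10.92 and 10.80 log2 CPM in siSF3B1 cells, rose by 0.78, 0.83 and 0.58 in siSF3B1 over siCtrl cells at 1% O2 (adjusted p up to 0.00570 by limma). KRT8 and KRT18 share exonic bases on opposite strands. KRT7 fell by 1.44 (adjusted p = 3.68e-05), the other 4 of the 8 were not called, and the median of the 8 was 0.023. CFTR, which also marks ductal cells, had no row. Fibroblast markers (5 of 10 with a row) summed to 34.4 to 58.0 CPM in siSF3B1 libraries, 32.4 to 64.1 CPM in siCtrl libraries at 1% O2 and 26.4 to 49.1 CPM in siCtrl libraries at 21% O2. Blood and endothelial markers had rows only for HBA1 and CD68 of 11, with PTPRC, PECAM1 and VWF among those without, and summed to 167.6 to 228.7 CPM in siSF3B1 libraries, 121.6 to 166.0 CPM in siCtrl libraries at 1% O2 and 104.8 to 149.5 CPM in siCtrl libraries at 21% O2. Acinar and endocrine markers had none of 8.

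Per kilobase of annotated exon, MALAT1 stood at the top in all 3 groups, with 80.4 ± 6.57 CPM per kb in siSF3B1 cells, 51.8 ± 4.50 in siCtrl cells at 1% O2 (SD, n = 3 each) and 55.6 ± 8.44 in siCtrl cells at 21% O2 (n = 2). NEAT1 and TUG1 came next. TUG1 was above NEAT1 in every siSF3B1 library and in both siCtrl libraries at 21% O2, while in siCtrl cells at 1% O2 the spread of NEAT1 (11.6 to 24.3 CPM per kb) covered TUG1 (16.8 to 17.5), so these could not be ranked there. NEAT1 held 10.2 ± 1.83 CPM per kb in siSF3B1 cells, 17.4 ± 6.43 in siCtrl cells at 1% O2 and 14.4 ± 4.44 in siCtrl cells at 21% O2, and TUG1 held 13.9 ± 0.710, 17.1 ± 0.376 and 18.6 ± 0.225 in the same order. The 22.8 kb of NEAT1 exon belong mostly to the long form, so its value per kb would be higher if most reads came from the short one. The place of NEAT1 below MALAT1 and beside TUG1 therefore holds only for this length and could differ for the short form. The 10.2 kb used for TUG1 likewise exceed its longest transcript of 7469 bases. The protocol names both an mRNA kit and ribosome depletion, so it is unclear whether polyadenylated RNA was selected, and long NEAT1 and MALAT1 lack a usual poly(A) tail. The levels of both therefore hold for these libraries and may not be those in the cell. The microRNA hosts were scarcer. MIR210HG was level with MIR22HG in siSF3B1 cells (4.14 ± 0.672 against 3.79 ± 0.376 CPM per kb), above it in siCtrl cells at 1% O2 (9.73 ± 1.41 against 4.56 ± 1.10) and below it in siCtrl cells at 21% O2 (0.856 ± 0.286 against 5.76 ± 0.963). MIR17HG was lowest in every group, at 0.493 ± 0.0757, 0.557 ± 0.0303 and 0.578 ± 0.0279 CPM per kb.

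**Figure D1:**
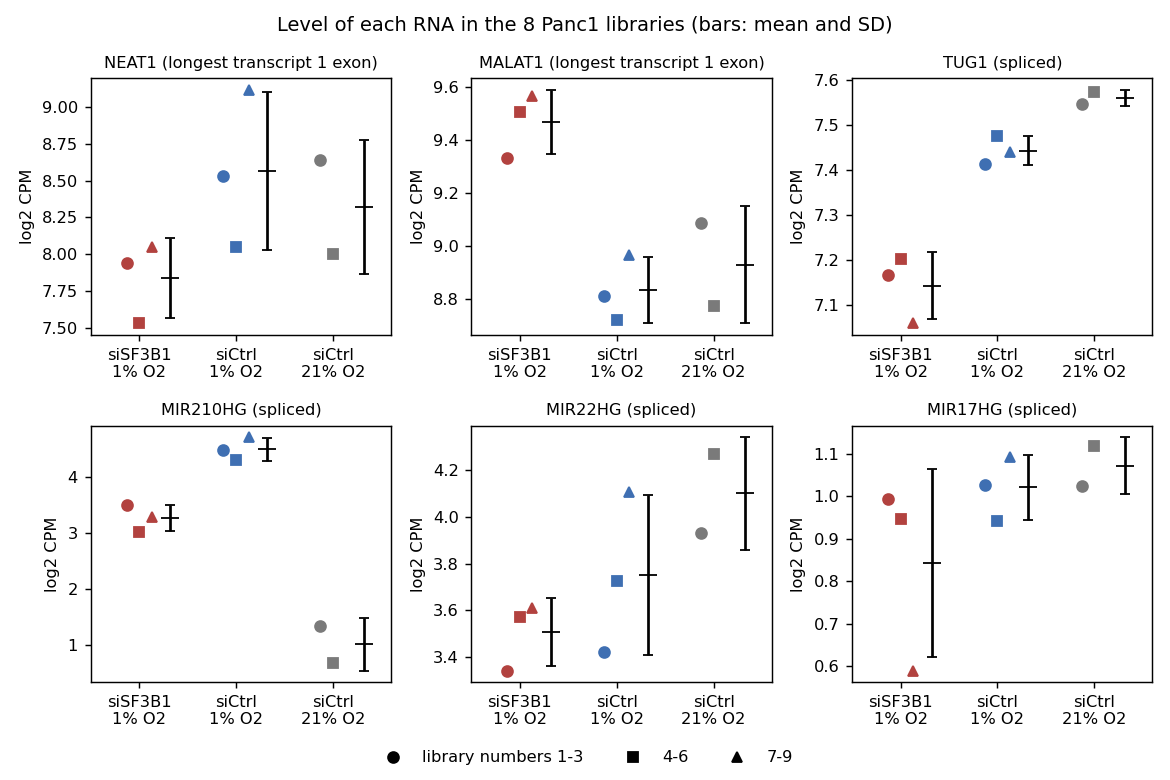
Level of each of the 6 RNAs in log2 CPM (vertical axes, each with its own range) in the 3 siSF3B1 libraries at 1% O2, the 3 siCtrl libraries at 1% O2 and the 2 siCtrl libraries at 21% O2; points are libraries, shapes give the library number in the labels (1 to 3, 4 to 6, 7 to 9), and bars show mean and SD. MIR210HG separates all 3 groups, MALAT1 is high and TUG1 low in siSF3B1 cells, and MIR17HG differs little.

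Low oxygen raised 1 of the 6 RNAs, the miR-210 host. MIR210HG rose 11.1-fold in siCtrl cells at 1% O2 over siCtrl cells at 21% O2, while NEAT1, MALAT1, TUG1, MIR22HG and MIR17HG did not pass the test. Of all tested genes 5.65% were called in this comparison, 4.35% higher and 1.30% lower. The 2 libraries at 21% O2 limit it: without library 1 or 4 of that group, 278 or 306 genes were called, against 741 with all libraries, and 1645 with the library number of the labels as a block.

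MIR210HG read 4.48, 4.29 and 4.71 log2 CPM in siCtrl libraries 2, 5 and 8 at 1% O2, against 1.35 and 0.68 in siCtrl libraries 1 and 4 at 21% O2. All 3 hypoxic libraries lay far above both normoxic ones. In reads this was 425 to 623 per library against 58 and 40. The difference was 3.48 on the log2 scale (95% CI 3.00 to 3.96, SE 0.215, adjusted p = 9.56e-06 by limma), and only 5 of the 13112 tested genes rose more. It was 3.13 between libraries 2 and 1 and 3.61 between libraries 5 and 4, and stayed between 3.15 and 3.81 when any one library was left out. In bulk samples like these, fewer cells of a type and less RNA per cell cannot be told apart.

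The region just before the MIR210HG start site is given because this RNA has the clearest oxygen response of the set. RefSeq's window of 250 bases before to 50 after the start (GRCh38.p14, chr11:568408-568707, minus strand) was searched on both strands for ACGTG and GCGTG, the core letters to which HIF is known to bind, and the matches are in capitals:
MIR210HG promoter: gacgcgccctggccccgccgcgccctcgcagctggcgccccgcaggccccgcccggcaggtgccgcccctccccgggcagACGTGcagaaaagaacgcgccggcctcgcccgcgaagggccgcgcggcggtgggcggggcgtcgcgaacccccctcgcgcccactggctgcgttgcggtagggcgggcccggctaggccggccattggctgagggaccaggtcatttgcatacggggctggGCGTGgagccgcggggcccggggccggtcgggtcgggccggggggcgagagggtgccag
ACGTG starts 170 bases before the start site and GCGTG 9 bases before it. Such letters are common: 48.4% of 35116 RefSeq promoter windows hold either core and 21.4% hold ACGTG. TUG1 and MIR22HG, which did not pass the hypoxia test, have 4 and 2 matches, 2 of those of TUG1 overlapping on opposite strands. The 2 MALAT1 windows have 2 and 1, and MIR17HG has 0. A match describes letters, not binding.

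NEAT1 is a reported hypoxia-responsive RNA in other cells. Here it read 8.53, 8.05 and 9.11 log2 CPM in siCtrl libraries 2, 5 and 8 at 1% O2, against 8.64 and 8.00 in siCtrl libraries 1 and 4 at 21% O2. The groups overlapped, and the spread within each was wider than the gap between them. The difference of 0.25 (95% CI -0.38 to 0.87, adjusted p = 0.680 by limma) turned to -0.075 without library 4 and to -0.029 without library 8. Between libraries 2 and 1 the difference was -0.11, and between libraries 5 and 4 it was 0.047. The interval, from the fit without the library number as a block, reaches a 1.83-fold rise. A moderate change could thus not be detected by that fit.

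MALAT1 read 8.81, 8.72 and 8.97 log2 CPM in siCtrl libraries 2, 5 and 8 at 1% O2, against 9.09 and 8.78 in siCtrl libraries 1 and 4 at 21% O2. The groups overlapped, with a difference of -0.10 (95% CI -0.34 to 0.15, adjusted p = 0.671 by limma) that turned to 0.058 without library 1. TUG1 read 7.41, 7.48 and 7.44 at 1% O2, against 7.55 and 7.57 at 21% O2. These groups did not overlap, yet the gap was small, at -0.12 (95% CI -0.26 to 0.028, adjusted p = 0.360).

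MIR22HG read 3.42, 3.72 and 4.11 log2 CPM in siCtrl libraries 2, 5 and 8 at 1% O2, against 3.93 and 4.27 in siCtrl libraries 1 and 4 at 21% O2. The groups overlapped through library 8 alone. The difference was -0.35 (95% CI -0.78 to 0.075, adjusted p = 0.347 by limma). Pairing libraries by their label numbers (1 with 2, 4 with 5) changed the call: the pairs differed by -0.51 and -0.55, and with the number set as a block the difference was -0.47 (adjusted p = 0.0200). With that block 2 of the 6 RNAs and 1645 of all genes were called. MIR17HG read 1.03, 0.94 and 1.09 at 1% O2, against 1.03 and 1.12 at 21% O2, or 40 to 55 reads per library in both groups together. These values overlapped, with a difference of -0.052 (95% CI -0.51 to 0.40, adjusted p = 0.920).

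**Figure D2:**
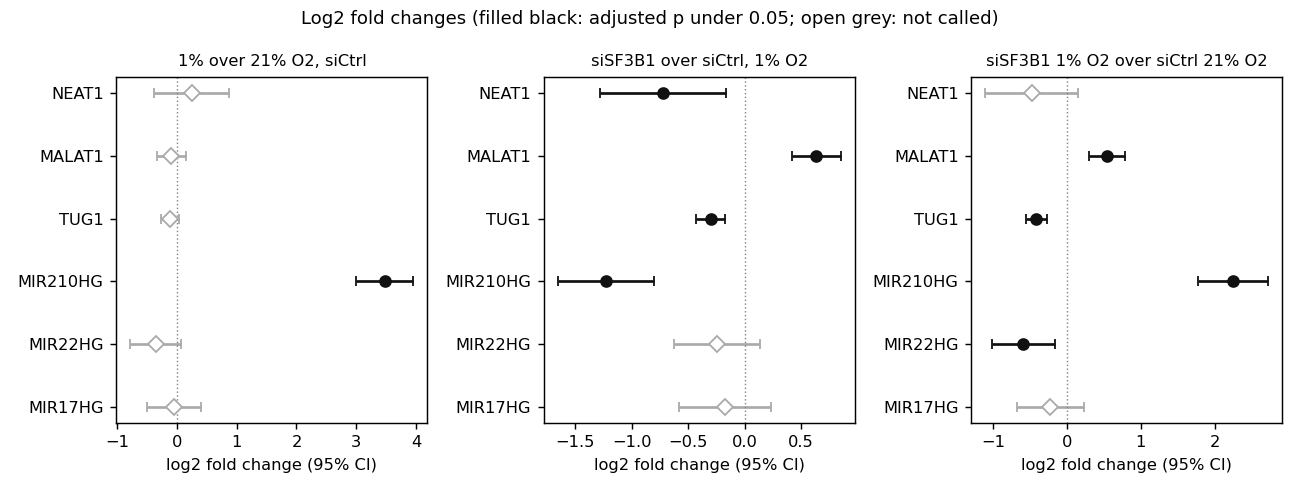
Log2 fold change of each RNA with its 95% CI from limma (horizontal axes, with different ranges) in 3 comparisons; filled black points have an adjusted p under 0.05 and open grey diamonds do not. MIR210HG stands at 3.48 in the oxygen comparison and at -1.23 in the SF3B1 comparison, where MALAT1 is at 0.63 on the other side of 0.

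With SF3B1 depleted at 1% O2, MALAT1 rose 1.55-fold, NEAT1, TUG1 and MIR210HG fell, and MIR22HG and MIR17HG did not pass the test. Thus 4 of the 6 RNAs were called, against 66.0% of all tested genes (35.0% higher and 30.9% lower), which is near the background. MIR210HG fell most, to 0.427 of its siCtrl level. The siCtrl libraries at 1% O2 are the same ones as in the oxygen comparison, so the 2 sets of values are not independent.

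MALAT1 read 9.33, 9.51 and 9.56 log2 CPM in siSF3B1 libraries 3, 6 and 9, against 8.81, 8.72 and 8.97 in siCtrl libraries 2, 5 and 8 at 1% O2. Every siSF3B1 library lay above every siCtrl library at either oxygen level. The difference was 0.63 (95% CI 0.42 to 0.85, SE 0.0979, adjusted p = 0.000247 by limma). It stayed positive and called under all 18 alternatives run, at 0.44 to 0.70.

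NEAT1 read 7.94, 7.53 and 8.05 log2 CPM in siSF3B1 libraries 3, 6 and 9, against 8.53, 8.05 and 9.11 in siCtrl libraries 2, 5 and 8 at 1% O2. The groups just failed to touch: the highest siSF3B1 library had 264.2 CPM and the lowest siCtrl library 264.3 CPM. The difference was -0.72 (95% CI -1.29 to -0.16, SE 0.252, adjusted p = 0.0272 by limma), or 0.605 of the siCtrl level. Within the label numbers it was -0.59, -0.52 and -1.07. The call was lost without siCtrl library 8 (-0.45, adjusted p = 0.0988), without siCtrl library 2 (-0.74, adjusted p = 0.0574) and without siSF3B1 library 6 (-0.57, adjusted p = 0.0899), all by limma. It was also lost by limma without an intensity trend (adjusted p = 0.0581). The other 14 of the 18 alternatives run kept direction and call, with an adjusted p down to 5.38e-06 by limma.

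TUG1 read 7.17, 7.20 and 7.06 log2 CPM in siSF3B1 libraries 3, 6 and 9, against 7.41, 7.48 and 7.44 in siCtrl libraries 2, 5 and 8 at 1% O2. No siSF3B1 library reached the lowest siCtrl one. The spread within each group was the smallest of the 6 RNAs at 1% O2, and the difference of -0.30 (95% CI -0.43 to -0.17, SE 0.0582, adjusted p = 0.00111 by limma) was accordingly called at 0.812 of the siCtrl level.

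MIR210HG read 3.49, 3.02 and 3.29 log2 CPM in siSF3B1 libraries 3, 6 and 9, against 4.48, 4.29 and 4.71 in siCtrl libraries 2, 5 and 8 at 1% O2. The groups were well apart, with 170 to 234 reads per siSF3B1 library and 425 to 623 per siCtrl library. The difference was -1.23 (95% CI -1.66 to -0.80, SE 0.192, adjusted p = 0.000269 by limma), and it was -0.99, -1.27 and -1.42 within the label numbers. The level did not return to that of normoxia. MIR210HG was still 4.76-fold higher in siSF3B1 cells at 1% O2 than in siCtrl cells at 21% O2 (2.25 on the log2 scale, 95% CI 1.77 to 2.73, adjusted p = 1.23e-05 by limma).

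MIR22HG read 3.34, 3.57 and 3.61 log2 CPM in siSF3B1 libraries 3, 6 and 9, against 3.42, 3.72 and 4.11 in siCtrl libraries 2, 5 and 8 at 1% O2. The groups overlapped and the difference of -0.24 was not called (95% CI -0.62 to 0.14, adjusted p = 0.237 by limma). With the library number as a block it was the same -0.24 with an adjusted p of 0.0440, from pairs that differed by -0.080, -0.15 and -0.49. MIR17HG read 0.99, 0.95 and 0.59 in siSF3B1 libraries, against 1.03, 0.94 and 1.09 in siCtrl libraries at 1% O2. Library 9 alone was low, with 27 reads where the other 7 libraries had 39 to 55. The difference was -0.18 (95% CI -0.59 to 0.23, adjusted p = 0.415 by limma).

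In siSF3B1 cells at 1% O2 against siCtrl cells at 21% O2, 4 of the 6 RNAs were called, against 62.4% of all tested genes. MALAT1 was higher by 0.54 (95% CI 0.29 to 0.78, adjusted p = 0.00171 by limma), and after quantile normalization by 0.27 (adjusted p = 0.0524). TUG1 fell by 0.42 on the log2 scale (adjusted p = 0.000314 by limma), and the 3 groups of TUG1 stood in order without overlap, lowest in siSF3B1 cells at 1% O2 and highest in siCtrl cells at 21% O2. MIR22HG fell by 0.59 (adjusted p = 0.0206 by limma), a call that was lost without siCtrl library 4 at 21% O2 (-0.42, adjusted p = 0.173) and without siSF3B1 library 3 (-0.51, adjusted p = 0.0535). NEAT1 differed by -0.48 (95% CI -1.11 to 0.15, adjusted p = 0.162), and with the library number as a block by -0.67 (adjusted p = 6.01e-05 by limma). MIR17HG differed by -0.23 (adjusted p = 0.351).

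**Figure D3:**
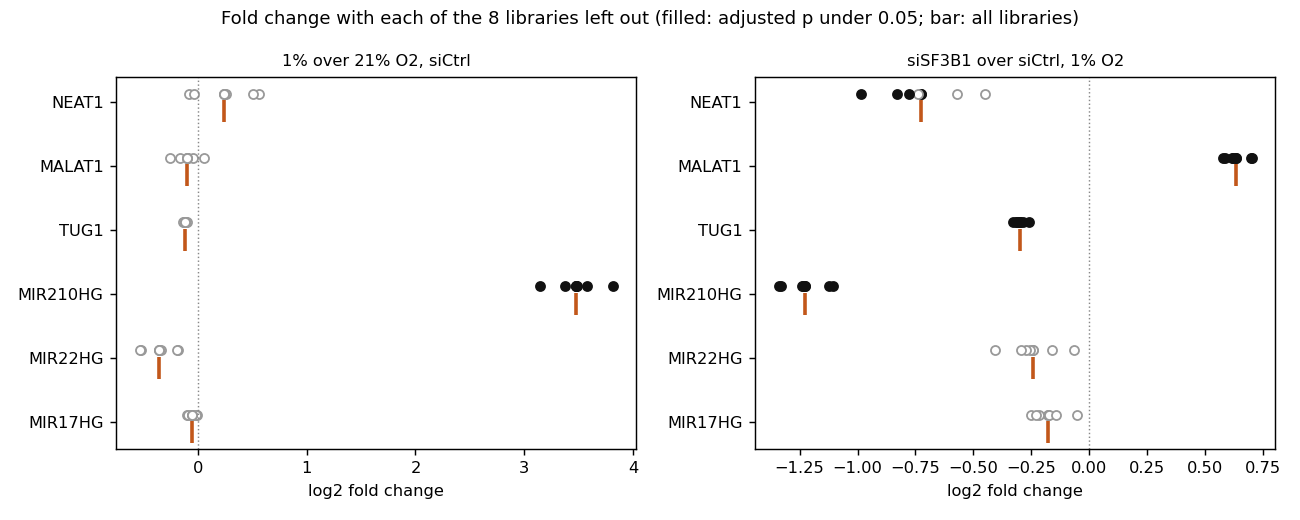
Log2 fold change of each RNA (horizontal axes) when each of the 8 libraries in turn was left out (points, filled where the adjusted p by limma was under 0.05) and with all libraries (orange bars), for 1% over 21% O2 in siCtrl cells (left) and siSF3B1 over siCtrl cells at 1% O2 (right). NEAT1 spreads from -0.98 to -0.45 in the SF3B1 comparison with open points among them, and MIR210HG, MALAT1 and TUG1 stay filled there.

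The unspliced pair did not move together. With SF3B1 depleted, MALAT1 rose and NEAT1 fell, and of the 4 spliced RNAs TUG1 and MIR210HG fell, with MIR22HG at -0.24 and MIR17HG at -0.18. Long noncoding genes at large had more members that fell than rose in both exon classes. Among 78 tested long noncoding genes of GENCODE 29 whose longest transcript has 1 exon, 8 rose and 36 fell in siSF3B1 cells, with a median log2 fold change of -0.42. Among 411 with more exons, 62 rose and 192 fell, with a median of -0.38. The median over all 13112 tested genes was 0.033, and 14.3% of the 489 long noncoding genes rose while 46.6% fell, so MALAT1 was among the minority. As matched to GENCODE 29, these 489 also include some symbols known to code for protein, among them RGS5, ZNF503, HOXC5 and SPATA13. For protein-coding genes the median was 0.14 over 421 whose longest transcript has 1 exon and 0.044 over 11627 with more. Where every annotated transcript has 1 exon, it was 0.25 over 199 protein-coding genes and -0.42 over 44 long noncoding genes. In the oxygen comparison 1 of 78 and 17 of 411 long noncoding genes rose, with medians of 0.024 and 0.063, against 3.68% of all 489 higher and 0.613% lower.

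**Figure D4:**
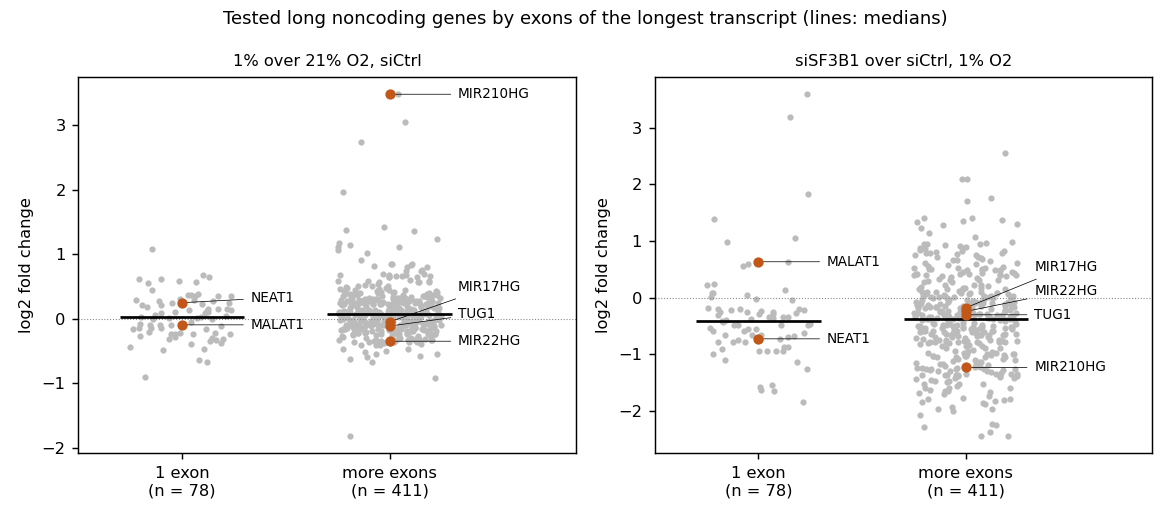
Log2 fold changes (vertical axes) of 489 tested long noncoding genes split by the exons of their longest annotated transcript (78 with 1 exon, 411 with more), for 1% over 21% O2 in siCtrl cells (left) and siSF3B1 over siCtrl cells at 1% O2 (right); grey points are genes, black lines medians, and orange points the 6 RNAs described. Both classes centre below 0 on the right, at -0.42 and -0.38, with NEAT1 below and MALAT1 above.

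The 2 microRNA genes MIR210 and MIR612, which lie inside these RNAs, had rows of their own, and both were below the filter on low values. They were singled out after their values were seen. The tests of these 2 rows use the same values and are no independent check. MIR210, in the intron of MIR210HG, had 15, 3 and 7 reads in siSF3B1 libraries 3, 6 and 9, 14, 18 and 38 reads in siCtrl libraries 2, 5 and 8 at 1% O2, and 1 and 0 reads in siCtrl libraries 1 and 4 at 21% O2. It was thus detected in all 6 libraries at 1% O2 and scarcely at 21% O2. The protocol describes libraries of longer fragments, so this row does not measure the mature microRNA. Per 1000 reads of MIR210HG there were 42.5 in siSF3B1 cells and 44.8 in siCtrl cells at 1% O2, and 10.2 at 21% O2 from 1 read. Tested without the filter on low values, MIR210 was higher by 3.27 at 1% over 21% O2 (95% CI 2.05 to 4.48, adjusted p = 0.00606 by limma) and differed by -1.22 between siSF3B1 and siCtrl cells (95% CI -2.31 to -0.13, adjusted p = 0.0508).

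MIR612 lies at chr11:65444458-65444557, near the 3′ end of NEAT1, inside the exon of the long transcript and outside the other 7 NEAT1 transcripts. Its row had 19, 21 and 15 reads in siSF3B1 libraries 3, 6 and 9, against 6, 2 and 5 reads in siCtrl libraries 2, 5 and 8 at 1% O2 and 5 and 3 in siCtrl libraries 1 and 4 at 21% O2. Every siSF3B1 library was above every siCtrl library, which is the rule by which the row was picked. The NEAT1 row was lower in siSF3B1 cells. Tested without the filter on low values, MIR612 rose by 1.89 in siSF3B1 over siCtrl cells at 1% O2 (95% CI 1.13 to 2.66, adjusted p = 0.000732 by limma). Per 1000 NEAT1 reads there were 3.90 in siSF3B1 cells, 0.472 in siCtrl cells at 1% O2 and 0.495 in siCtrl cells at 21% O2. The 100 bases of MIR612 are shared with the NEAT1 exon, and the handling of reads that fall on both is not stated by the sources available.

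**Figure D5:**
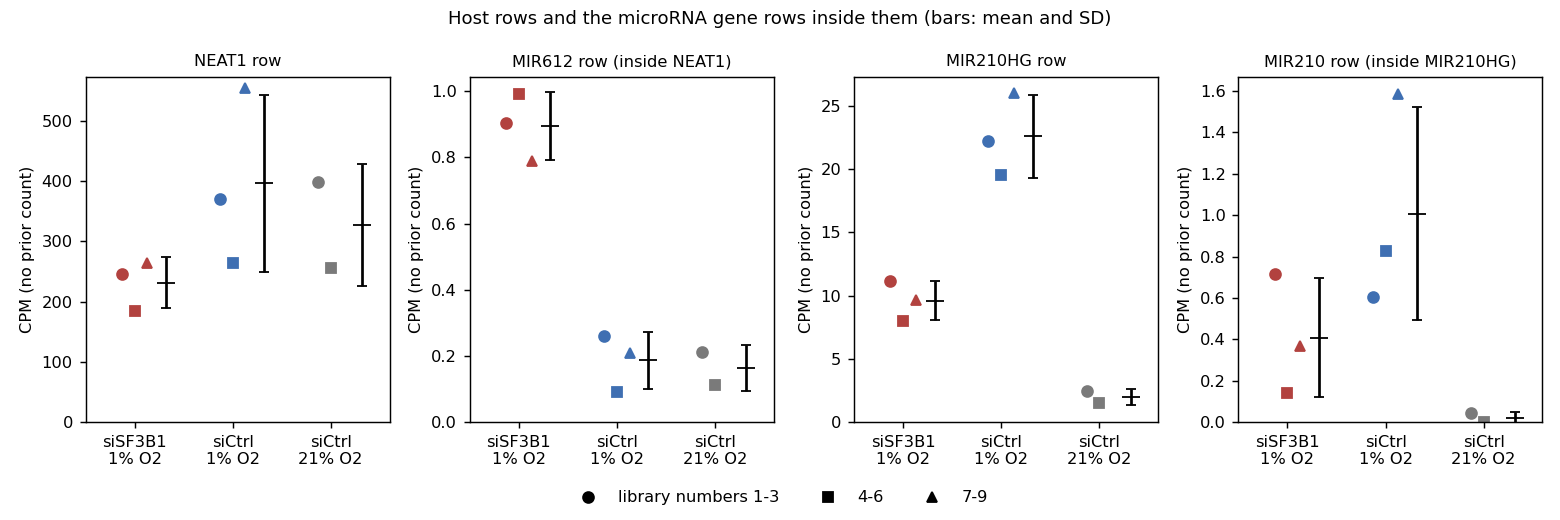
CPM without a prior count (vertical axes, from 0) of the NEAT1 row, the MIR612 row inside long NEAT1, the MIR210HG row and the MIR210 row in its intron, in siSF3B1 cells at 1% O2, siCtrl cells at 1% O2 and siCtrl cells at 21% O2; points are libraries with shapes for label numbers, bars mean and SD. MIR612 is high in siSF3B1 cells, with 15 to 21 reads, where NEAT1 is low, while MIR210 and MIR210HG are both highest in siCtrl cells at 1% O2.

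The genes next to the 6 RNAs had changes of their own. RASSF7, whose end lies 1639 bases from MIR210HG, rose by 0.67 in siCtrl cells at 1% over 21% O2 (adjusted p = 0.0151 by limma) and fell by 0.33 in siSF3B1 over siCtrl cells at 1% O2 (adjusted p = 0.0286). Both are smaller than the changes of MIR210HG, and neither call was stable: the first was lost without siCtrl library 1, 4 or 8 (adjusted p up to 0.127 by limma) and the second without siCtrl library 2 or 8 or siSF3B1 library 6 or 9 (up to 0.0979). PHRF1, on the other side of MIR210HG, was not called in the oxygen comparison (0.12, adjusted p = 0.462) and rose by 0.55 with SF3B1 depleted (adjusted p = 7.71e-05). FRMD8, next to NEAT1, was not called in either (-0.095 and -0.0088). MORC2, whose start lies 947 bases from TUG1, was not called in either comparison (-0.13 and -0.087). TLCD2, 1055 bases from MIR22HG, fell by 0.97 with SF3B1 depleted (adjusted p = 0.000225).

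Genes for proteins of the bodies that NEAT1 and MALAT1 occupy were followed as RNA. Of 31 tested for paraspeckle proteins, 15 rose and 7 fell in siSF3B1 over siCtrl cells at 1% O2 (70.97% called, median 0.23, against 66.0% and 0.033 over all genes, a share near the background), and scaling by plain read totals made 11 fall. NUDT21, a cleavage-factor subunit known to favour the short form of NEAT1, rose by 1.13 (adjusted p = 3.65e-07 by limma). FAM98A rose by 1.12 (adjusted p = 4.73e-07). TAF15, an RNA-binding protein of the FET family, fell by 1.11 (adjusted p = 7.90e-07) and RBM12 fell by 2.06 (adjusted p = 1.07e-07). Both are uncertain, since TAF15 shares exonic bases with HEATR9 and RBM12 with CPNE1. In the oxygen comparison 2 paraspeckle genes rose, AHDC1 (0.76, adjusted p = 0.0124) and ZC3H6 (0.71, adjusted p = 0.0256), and 4 fell, so that 19.4% were called against 5.65% of all genes. Without either siCtrl library at 21% O2 (1 or 4), 0 rose and 0 fell.

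Of 20 genes for nuclear speckle proteins, 13 rose and 2 fell with SF3B1 depleted (75% called, median 0.48, against 66.0% of all genes called and 35.0% higher), while 0 were called in the oxygen comparison (5.65% of all genes), and 3 fell there with the library number as a block. SON, a core scaffold of speckles, rose by 1.10 (adjusted p = 6.48e-07 by limma), PNISR by 1.06 (adjusted p = 5.61e-07) and SRRM1, a splicing coactivator, by 1.03 (adjusted p = 1.22e-06). SON shares exons with DONSON and GART on the other strand. Of 23 tested genes for 3′ processing of such RNAs, 13 rose and 8 fell with SF3B1 depleted (91.3% called, against 66.0% of all genes, median 0.32). METTL16, which binds the triple helix at the MALAT1 end, rose by 1.57 (adjusted p = 1.68e-07 by limma). CSTF2, a cleavage stimulation factor, fell by 1.24 (adjusted p = 2.31e-06), METTL3, which writes m6A, fell by 1.16 (adjusted p = 1.14e-05) and POP5, a subunit of RNase P, fell by 1.07 (adjusted p = 1.59e-05). METTL3 shares exonic bases with TOX4 on the other strand. In the oxygen comparison 0 of these 23 were called, against 5.65% of all genes, and 3 fell with the block.

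Of 24 genes of microRNA biogenesis and action, 12 rose and 8 fell with SF3B1 depleted (83.3% called, against 66.0% of all genes, median 0.052), and 0 were called in the oxygen comparison (5.65% of all genes), 1 with the block. DICER1, the enzyme that cuts precursors, fell by 1.20 (adjusted p = 1.21e-06 by limma), and shares exonic bases with its antisense gene. SRRT, which links capped transcripts to primary microRNA processing, rose by 0.74 (adjusted p = 3.92e-06). TNRC6B and TNRC6A, scaffolds of silencing complexes, rose by 1.08 (adjusted p = 6.42e-07) and 1.02 (adjusted p = 4.81e-06).

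Of 18 tested regulators reported for these hosts, 7 rose and 8 fell with SF3B1 depleted (83.3% called, against 66.0% of all genes, median 0.091). E2F1 and E2F2, which can drive MIR17HG, fell, E2F1 with a log2 fold change of -2.28 (adjusted p = 6.11e-08 by limma) and E2F2 with -2.33 (adjusted p = 2.08e-06), while MIR17HG itself was at -0.18. ARNT, the constant partner of HIF1α, fell by 0.92 (adjusted p = 2.69e-06). HIF1A RNA was higher by 0.89 in siSF3B1 over siCtrl cells at 1% O2 (adjusted p = 0.000429), and had fallen by 1.65 in siCtrl cells at 1% over 21% O2 (adjusted p = 0.000222). MYC rose by 0.36 at 1% over 21% O2 (adjusted p = 0.0181), a call lost without library 4, 2 or 5, and by 0.30 with SF3B1 depleted (adjusted p = 0.00225). These were 1 of 18 higher and 1 of 18 lower in the oxygen comparison (11.1% called, against 5.65% of all genes), or 2 and 2 with the block.

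MIR210HG was one of 6 of 19 genes reported as hypoxia-responsive long noncoding RNAs that rose at 1% over 21% O2, where 0 fell (31.6% called, median 0.15). Over all genes 4.35% rose, with a median of -0.017, and 3.68% of the 489 long noncoding genes did. The list holds MIR210HG itself and was made with earlier results of these data known, so its share is no independent check. One of the 6, ANKRD37 (2.83, adjusted p = 4.59e-05 by limma), codes for a protein and shares exonic bases with UFSP2 on the other strand. H19, an imprinted RNA, rose by 1.41 (adjusted p = 0.00565, or 0.0662 without library 1) and WT1-AS by 0.85 (adjusted p = 0.0131, or up to 0.160 without library 2, 4 or 8). WT1-AS is antisense to WT1, with which it shares exonic bases. The count was 3 without any one of libraries 1, 4, 2 and 8. With SF3B1 depleted, 4 of the 19 rose and 10 fell (73.7% called, against 66.0% of all genes, median -0.40), where 46.6% of the 489 long noncoding genes fell.

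Among 12 tested of 17 other genes named as microRNA hosts, 0 were called in the oxygen comparison (5.65% of all genes) and 1 fell with the block. With SF3B1 depleted 3 rose and 4 fell (58.3% called, against 66.0% of all genes, median -0.31), and 2 fell without siCtrl library 2. MIR100HG was higher by 1.75 in siSF3B1 over siCtrl cells at 1% O2 (adjusted p = 7.44e-06 by limma), and MIR31HG by 1.33 (adjusted p = 3.56e-06). MIR100HG is uncertain, since it shares exonic bases with BLID on the same strand. MIR4697HG fell by 1.86 (adjusted p = 0.000263) and MIR1915HG by 0.95 (adjusted p = 0.00659). MIRLET7BHG, at 0.40 (adjusted p = 0.0282), and MIR4435-2HG, at -0.33 (adjusted p = 0.0248), lost the call when single libraries were left out, the first without siCtrl library 2, 5 or 8 or siSF3B1 library 3 or 9 (adjusted p up to 0.0958 by limma) and the second without siCtrl library 2 or 5 or siSF3B1 library 9 (up to 0.101). MIRLET7BHG also shares exonic bases with PRR34 and PRR34-AS1, and MIR4435-2HG with BCL2L11.

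Genes with the most similar profiles were sought by the root mean square difference of centred log2 CPM over the 8 libraries, as a description. For MIR210HG, whose own spread was 1.37, these were EFNA3 (0.231), RORA (0.276) and PDK1 (0.347). EFNA3 and PDK1 stood at 3.08 and 2.83 on the log2 scale at 1% over 21% O2 and at -0.86 and -1.12 with SF3B1 depleted, beside 3.48 and -1.23 for MIR210HG. For MALAT1, with a spread of 0.313, they were TFE3 (0.0650), AFF4 (0.0706) and ZNF765 (0.0741). For NEAT1, with a spread of 0.466, they were SYTL1 (0.158), CEACAM19 (0.163) and GJD3 (0.188). TUG1 was closest to DLD (0.0266), MFN2 (0.0383) and ST3GAL4 (0.0396). MIR22HG was close to OTUB2 (0.0694) and AP4B1 (0.139), and MIR17HG to HSD17B4 (0.0555), MTFMT (0.0592) and PUS7L (0.0645).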

How the data were processed

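The authors deposited 1 table of log2 CPM for 15176 genes in 8 libraries. Per the submitters' processing notes, Trimmomatic 0.35, STAR 2.7.0a, SAMtools 1.9, featureCounts of Subread 1.5.0, edgeR 3.24.3 and build GRCh38.p13 were used, with no roles given. Per the labels' protocols, a stranded mRNA kit was used and RNA was ribosome depleted; whether polyadenylated RNA was also selected is unclear, and the strand setting of the counting was not stated there. The deposited log2 values carry a prior count of 1.96 on average and came from whole reads: 100% of values gave whole reads within 0.01. A floor of 3 reads (0.158 CPM in the shallowest library) was chosen, but the tests did not apply it, and counts down to 0 occur. Intervals cover the spread between libraries.

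The deposited log2 CPM were tested with limma 3.58.1 in R 4.3.3, with an intensity trend, 1 mean per group over all 8 libraries, genes with mean log2 CPM above 0 (13112), two-sided, Benjamini-Hochberg adjustment over these genes and a threshold of 0.05. Fold changes are on the log2 scale with prior count, which understates changes of low genes. The fit was tested on simulated data. Alternatives were no filter, a filter of 1, a prior count of 0.5, plain read totals, quantile normalization, median-centred libraries, limma without trend, limma voom on recovered reads, only the groups compared, the library number as a block, and each library left out.

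The labels number the libraries 1 to 9 with 7 absent, so the set 7 to 9 has no siCtrl library at 21% O2. Deviations from the group means correlated at 0.344 to 0.430 over 7 pairs of the same set (1 to 3, 4 to 6, 7 to 9). They correlated at -0.423 to 0.0586 over 14 other pairs. Deviations within a group sum to 0, so the 2 ranges are not independent and negative values are partly forced. From the same-set correlations the numbers were taken to pair libraries, although the labels do not say what the sets are. Values are from the fit without this block, and the blocked value is given where it changed a call of the 6 RNAs or moved a count by over 1.5 times. No libraries of a group agreed within sampling noise (chi-square per degree of freedom 8.65 to 21.4). Exons, positions and neighbours are from GENCODE 29, which matched 14813 of the genes; sequences are from RefSeq (GRCh38.p14), which matched the 3 hosts and 5 of the 6 promoters. The members and lists were chosen with earlier results of these data known. Named genes are the 6 members, SF3B1, up to 4 called per list with the smallest p (2 with the largest change where none was called), up to 6 called other microRNA hosts and the 3 nearest profiles; neighbours, MIR210 and MIR612 were added after values were seen. A few genes that these rules name are not reported here. Lists of reported targets of miR-210, miR-17-92 and miR-22 and of other long noncoding RNAs are in the closing section. A hand-made list of intronless coding genes was dropped, since it held genes with introns, and the annotation's own single-exon class was used in its place.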

Additional observations from a re-analysis of the deposited data

Results flagged for a closer look

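Both results concern rows of microRNA genes that lie inside the long RNAs described and were below the filter on low values, so they took no part in the main comparisons. Each row was flagged because its reads separated the libraries as given here, so that separation is no independent check. The MIR210 row, in the intron of MIR210HG, had at least 3 reads in every library at 1% O2, against 1 and 0 in the siCtrl libraries at 21% O2. Its sums were 25 reads in siSF3B1 cells, 70 in siCtrl cells at 1% O2 and 1 in siCtrl cells at 21% O2.

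The MIR612 row, inside the long form of NEAT1, had at least 15 reads in every siSF3B1 library, where the most in any siCtrl library was 6. Its sums were 55 reads in siSF3B1 cells, 13 in siCtrl cells at 1% O2 and 8 in siCtrl cells at 21% O2, while the NEAT1 row summed to 14112, 27569 and 16156 reads. The length of the NEAT1 form behind the reads was not tested.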

How the results depend on the processing

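Of the 6 RNAs, MIR210HG and TUG1 kept direction and call in all 3 comparisons under the 18 alternatives run, and MIR17HG under the 17 that gave a value (it fell below the filter of 1). In the oxygen comparison, leaving out 1 library moved NEAT1 between -0.075 and 0.57 (-0.029 without siCtrl 1% O2 library 8), MALAT1 between -0.25 and 0.058 and the number of genes called between 278 (without siCtrl 21% O2 library 1) and 881 (306 without library 4, 418 without siCtrl 1% O2 library 2, 411 without library 8). With the replicate number as a block, 1645 genes and 2 of the 6 RNAs were called there, MIR22HG stood at -0.47 (adjusted p = 0.0200 by limma) in it and at -0.24 (adjusted p = 0.0440) in the SF3B1 comparison, and NEAT1 at -0.67 between siSF3B1 cells at 1% O2 and siCtrl cells at 21% O2; the block changed no other call of the 6. NEAT1 in siSF3B1 over siCtrl cells at 1% O2 was -0.72 with an adjusted p of 0.0581 by limma without trend, and -0.98 to -0.45 with 1 library left out. Quantile normalization left MALAT1 at 0.27 (adjusted p = 0.0524 by limma) between siSF3B1 cells at 1% O2 and siCtrl cells at 21% O2, where leaving out 1 library moved MIR22HG between -0.76 and -0.42. Plain read totals moved the median gene in the SF3B1 comparison to -0.098, against 0.033 as deposited, and between siSF3B1 cells at 1% O2 and siCtrl cells at 21% O2 to -0.10, against 0.061. Of the calls, 41.7% were then higher in the SF3B1 comparison (53.1% as deposited), 64.7% in the oxygen comparison (76.9%) and 39.7% in the third (54.7%). The causes of these shifts were not tested. The 2 libraries at 21% O2 and the 27 to 55 reads of MIR17HG per library limit what could be detected.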

Other observations

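Messenger RNAs reported as targets of the hosted microRNAs were followed beside the hosts. All shares of called genes below stand against 5.65% of all tested genes in the oxygen comparison (4.35% higher, 1.30% lower) and 66.0% with SF3B1 depleted (35.0% higher, 30.9% lower). Of 19 tested miR-210 targets, 2 rose and 1 fell in siCtrl cells at 1% over 21% O2 (15.8% called), with a median log2 fold change of 0.0048 against -0.017 over all 13112 genes, and without either siCtrl library at 21% O2 1 rose and 0 fell, while 2 fell with the library number as a block. EFNA3, an ephrin, rose by 3.08 (adjusted p = 0.000137 by limma). With SF3B1 depleted, 7 rose and 4 fell (57.9% called, median 0.019), while plain read totals made 7 fall and leaving out siCtrl library 8 made 2 fall. ISCU, an iron-sulphur cluster scaffold, rose by 0.90 (adjusted p = 1.57e-05), and TNPO1, a nuclear import receptor, by 0.83 (adjusted p = 1.39e-05). Of 24 miR-17-92 targets, 0 rose and 2 fell in the oxygen comparison (8.33% called), HIF1A and THBS1 (-1.01, adjusted p = 0.00667 by limma, or 0.0699 without library 1 and 0.0573 without library 4), or 3 rose and 3 fell with the library number as a block. THBS1 shares exonic bases with FSIP1 on the other strand. With SF3B1 depleted 9 rose and 7 fell (66.7% called, median -0.015), among them RB1, the retinoblastoma protein gene, which fell by 1.40 (adjusted p = 1.96e-06), and SOCS3, which rose by 1.43 (adjusted p = 3.14e-06). Of 14 miR-22 targets, 0 were called in the oxygen comparison (3 rose and 1 fell with the block), and 4 rose and 5 fell with SF3B1 depleted (64.3% called, median -0.029), or 2 rose by plain read totals and 3 fell without siCtrl library 2. CDK6, a cell cycle kinase, fell by 2.33 (adjusted p = 3.27e-08 by limma).

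Of 46 other known long noncoding RNAs, 2 rose in the oxygen comparison (4.35% called), H19 and LUCAT1 (1.36, adjusted p = 0.0292 by limma, or up to 0.180 with 1 library left out), and 6 rose with the block. Without siCtrl library 1 at 21% O2, 0 rose. With SF3B1 depleted 12 rose and 17 fell (63.0% called, median -0.079), beside 14.3% higher and 46.6% lower over the 489 long noncoding genes. SNHG1, a snoRNA host, rose by 1.28 (adjusted p = 3.49e-07), and NRAV fell by 1.46 (adjusted p = 1.14e-06). SNHG1 shares exonic bases with the snoRNAs it hosts. Of 199 tested protein-coding genes whose every GENCODE 29 transcript has 1 exon, 86 rose and 31 fell with SF3B1 depleted (58.8% called, median 0.25), and 13 rose and 2 fell in the oxygen comparison (7.54% called, median 0.049).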
